A study of Arabidopsis thaliana with 31 samples.

Results

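The photolesion map of UV-C-treated *ago1* plants consists of 259 genomic regions, all regions of the *ago1* list, out of 7269 regions listed for 5 genotypes. The lists of WT, *uvr3 phrI*, *ddb2* and *dcl4* plants hold 3585, 999, 1166 and 1260 regions. The *ago1-27* allele is hypomorphic and keeps some AGO1 function. Leaves of *ago1-27* plants of the Col 0 ecotype, labelled as 18 days old and grown in vitro (the growth times in the study's methods add up to a few days more), were exposed to a UV-C dose of 3000 J/m2 and harvested immediately, with the leaves of 2 biological replicates pooled. Sonicated and denatured genomic DNA was immunoprecipitated with either an anti-CPD or an anti-6,4 PP antibody, which gave 2 *ago1* IP libraries. The control for every list was the input DNA of WT (Col 0) plants given the same UV-C dose, so an *ago1* fold enrichment compares *ago1* IP with WT input and not with *ago1* input. Regions of both antibodies stand in 1 list that does not name the antibody, and untreated plants have no list. Of the genotypes mapped, *ago1* had the fewest mapped IP reads. The number of reads behind each region is not in the list, so the precision of a single fold enrichment is unknown. With 1 pooled list there is no replicate, and no difference was tested. Shares have exact Clopper-Pearson 95% confidence intervals (CI), those of medians were read from ranked values, and both reflect counting error alone.

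UV-C fuses neighbouring pyrimidines of a DNA strand into cyclobutane dimers, the CPDs, or into 6,4 photoproducts, the 6,4 PPs. Plants revert them with photolyases in the light (direct repair, lost in *uvr3 phrI* plants) or excise them, and in global genome repair (GGR) the damage-binding protein DDB2 finds the lesion. AGO1 is the main ARGONAUTE protein of Arabidopsis that loads microRNAs and small interfering RNAs, DCL4 cuts such siRNAs, and both have been placed with DDB2 in a small RNA-mediated branch of GGR.

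The DNA of the most enriched *ago1* regions is shown first because simple repeats recur in it. Each sequence is a 240-bp window of 1 region, on the plus strand of TAIR10.1, whose chromosome sequence is that of TAIR10. Capitals mark the repeat, and the last sequence, from the highest region that holds none of the repeats searched, has none.
AT2TE20955 and AT2TE20960, CT repeat (chr2:5099912-5100151): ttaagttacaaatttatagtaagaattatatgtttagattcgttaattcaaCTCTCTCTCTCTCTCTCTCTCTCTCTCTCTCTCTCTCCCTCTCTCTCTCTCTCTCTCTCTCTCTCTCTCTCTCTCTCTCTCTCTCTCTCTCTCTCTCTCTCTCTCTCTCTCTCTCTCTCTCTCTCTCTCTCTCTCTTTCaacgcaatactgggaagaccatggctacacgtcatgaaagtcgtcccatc
AT3G23460, CA repeat (chr3:8414003-8414242): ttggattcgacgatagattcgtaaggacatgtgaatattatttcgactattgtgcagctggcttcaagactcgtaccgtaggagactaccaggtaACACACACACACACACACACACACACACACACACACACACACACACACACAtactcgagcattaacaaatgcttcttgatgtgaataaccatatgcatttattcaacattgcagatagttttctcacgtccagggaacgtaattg
AT4TE19110, GA run (chr4:4547807-4548046): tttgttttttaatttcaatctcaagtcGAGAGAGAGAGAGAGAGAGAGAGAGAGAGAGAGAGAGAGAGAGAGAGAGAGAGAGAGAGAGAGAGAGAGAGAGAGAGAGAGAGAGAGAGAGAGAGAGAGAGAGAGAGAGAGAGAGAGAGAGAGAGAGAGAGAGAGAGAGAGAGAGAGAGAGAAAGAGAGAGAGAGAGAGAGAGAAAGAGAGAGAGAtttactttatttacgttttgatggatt
AT1TE50365, telomere-type repeat (chr1:15297867-15298106): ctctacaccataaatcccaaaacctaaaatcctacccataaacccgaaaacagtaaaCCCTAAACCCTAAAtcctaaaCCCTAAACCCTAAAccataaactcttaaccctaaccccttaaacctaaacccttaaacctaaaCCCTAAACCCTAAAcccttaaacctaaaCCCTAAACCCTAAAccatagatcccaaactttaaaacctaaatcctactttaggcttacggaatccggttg
Region after the 5.8S rRNA gene AT3G41979, no repeat (chr3:14202236-14202475): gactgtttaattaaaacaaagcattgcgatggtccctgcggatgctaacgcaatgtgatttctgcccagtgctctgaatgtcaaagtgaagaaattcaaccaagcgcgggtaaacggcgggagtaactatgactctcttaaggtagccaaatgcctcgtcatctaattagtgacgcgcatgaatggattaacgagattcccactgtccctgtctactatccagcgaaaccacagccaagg
The CT run of the first window is 139 bases long and the GA run of the third 186 bases, which on the other strand is an unbroken run of pyrimidines. The CA repeat of AT3G23460 spans 51 bases and lies in an intron between coding exons. The CCCTAAA unit of the fourth window, the unit of the plant telomere, occurs 8 times in its region.

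The *ago1* regions had fold enrichments between 2.67 and 21.2. The median was 5.59 (95% CI 5.48 to 5.85, quartiles 4.94 and 6.69), against 4.59 in WT, 5.03 in *uvr3 phrI*, 4.70 in *ddb2* and 4.91 in *dcl4* plants. A fold enrichment of at least 5 was listed for 186 *ago1* regions (71.8%, 95% CI 65.9 to 77.2%). Over all 5 lists 41% of the regions reached this value, and over the 4 other lists 39.9%. The share was 35.3% in WT (1264 regions), 51.8% in *uvr3 phrI* (517), 35.7% in *ddb2* (416) and 47.4% in *dcl4* plants (597). At least 10 was listed for 19 *ago1* regions (7.34%, 95% CI 4.47 to 11.2%), in number the fewest of the 5 lists. The other lists held 25 in WT (0.697%), 33 in *uvr3 phrI* (3.30%), 26 in *ddb2* (2.23%) and 30 in *dcl4* plants (2.38%). By median and share the *ago1* list thus lay higher, but in number it had the fewest regions at 5 or more. Its maximum was below the 25.7 of *uvr3 phrI* plants. The part of depth and of the number of regions in the higher shares was not tested. All lists share the same WT input, and the IP libraries differ in depth, so these values are given side by side.

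**Figure D1:**
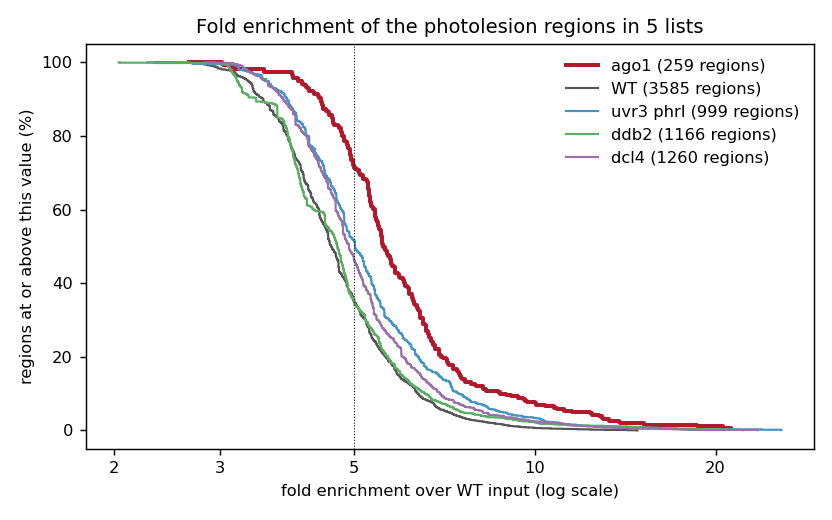
Share of the regions of each list (y axis, %) at or above a fold enrichment over WT input (x axis, log scale), with 1 line per genotype and a dotted line at 5. The *ago1* line lies to the right of the others through the middle of the range, with 71.8% of its 259 regions at 5 or more.

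The regions were between 246 and 772 bp long with a median of 291 bp, and together covered 78582 bp (0.0660% of the nuclear genome). Lengths piled up at 246 bp (52 regions) and 289 bp (29 regions). At 27 places a pair of entries overlapped, 17 of them nested, so that the 259 entries correspond to 232 separate loci. Entries in such pairs had a median fold enrichment of 6.61 (quartiles 5.98 and 9.58, n = 54), and single entries 5.48 (quartiles 4.88 and 6.44, n = 205). Of the 10 highest entries 7 belonged to a pair. Whether the entries of a pair came from different antibodies cannot be told from the list.

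The most enriched region, at 21.2, was Chr2:5099753-5100279. It touches the elements AT2TE20955 (ATREP18) and AT2TE20960 (ATLANTYS1) and the transposable element gene AT2G12510, although its middle lies outside them. The highest fold enrichment of a region touching it was 10.6 in the WT, 25.7 in the *uvr3 phrI*, 20.9 in the *ddb2* and 17.6 in the *dcl4* list. The second, at 20.6, was Chr3:8413859-8414396 in AT3G23460, annotated as an S-adenosylmethionine-dependent methyltransferase, and it holds the CA repeat shown above. A nested entry, Chr3:8413904-8414354, had 13.3. The other lists gave this place 14.4 in WT, 18.8 in *uvr3 phrI*, 21.7 in *ddb2* and 18.0 in *dcl4* plants. Both loci therefore stood far above the median in every genotype.

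The highest region in a TE, and on chromosome 4, was Chr4:4547708-4548222 at 18.6, across AT4TE19110 (ATDNAI27T9A) and AT4TE19115 (ATREP4), with a second entry at 13.0. Next came Chr3:10187878-10188422 at 15.2. It lies at the 3′ side of AT3G27510, a cysteine/histidine-rich C1 domain gene, and holds a pyrimidine run of 62 bases. Chr3:11895155-11895676 had 13.9 in an intergenic pyrimidine run of 125 bases, 6703 bp from the nearest protein-coding gene. On chromosome 1 the highest were Chr1:15297790-15298218 at 13.8 (AT1TE50365) and Chr1:16010823-16011507 at 13.0 (AT1TE52780), both ATREP18 copies with telomere-type repeats. The tenth, Chr3:14202100-14202611 at 12.8, lies in rDNA, the DNA of the rRNA genes, and starts 2184 bp after the 5.8S rRNA gene AT3G41979. It counts as intergenic because the annotation used holds no feature there. A nested entry of 249 bp had 4.89. A further pair of overlapping entries, on chromosome 2, starts 3767 and 3803 bp after the rRNA gene AT2G01020 and had 4.14 and 3.17. On chromosome 5 the highest was Chr5:19282859-19283397 at 12.5, where AT5G47530 and AT5G47540 meet, with a CA repeat. AT5G47530 is annotated as an auxin-responsive family protein and AT5G47540 as a Mo25 family protein. The 26 highest regions, from 8.77 upward, were each touched by a region of all 4 other lists, as were 105 of all 259 *ago1* regions.

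These repeats were then counted in every region, with definitions chosen after the sequences of the highest regions had been read. They were 10 copies of CT, CA or AT, 7 copies of CTT, 20 T, 2 copies of CCCTAAA, and any run of 30 pyrimidines, in any phase and on either strand. A CT, CTT or T repeat of sufficient length also counts as a pyrimidine run. At least 1 of them was found in 86 of the 259 *ago1* regions (33.2%, 95% CI 27.5 to 39.3%), or 72 of the 232 loci. The share was 8.09% in WT, 13.5% in *uvr3 phrI*, 11.0% in *ddb2* and 12% in *dcl4* regions, whose median lengths were 230, 141, 101 and 180.5 bp. In tiles of 291 bp, the median length of the *ago1* regions, laid over the whole genome, it was 1.54% (6303 of 408680), and in tiles of 500 bp 2.64%. In number the other lists held more such regions, 290, 135, 128 and 151 in the same order. Their median fold enrichments with and without a repeat were 5.17 and 4.55 in WT and 6.48 and 4.89 in *uvr3 phrI* plants. They were 5.72 and 4.60 in *ddb2* and 6.12 and 4.83 in *dcl4* plants. The lists differ in depth and in number of regions, and the part of this in the shares was not tested.

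CT repeats were in 18 *ago1* regions (6.95%, 95% CI 4.17 to 10.8%) and in 0.115% of the tiles of 291 bp. CA repeats were in 16, which form 10 loci (6.18% of regions, 95% CI 3.57 to 9.84%), and in 0.0220% of the tiles. T runs were in 15 (5.79%, 95% CI 3.28 to 9.37%) and in 0.316% of the tiles. Telomere-type repeats were in 27 (10.4%, 95% CI 6.98 to 14.8%) and in 0.196% of the tiles, and runs of at least 30 pyrimidines in 42 (16.2%, 95% CI 11.9 to 21.3%) and in 0.492%. The other lists reached 1.09 to 2.92% for CT, 0.669 to 1.5% for CA, 1.56 to 2.1% for T, 2.51 to 6.41% for telomere-type repeats and 3.40 to 4.89% for pyrimidine runs. AT repeats, which hold no neighbouring pyrimidines, were in 2 regions (0.772%, 95% CI 0.0937 to 2.76%) and in 0.453% of the tiles, so that their share could not be told from that of the genome. CTT repeats were in 2 regions as well. The CA unit holds no neighbouring pyrimidines either. The part of di-pyrimidine content in these shares was not tested.

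**Figure D2:**
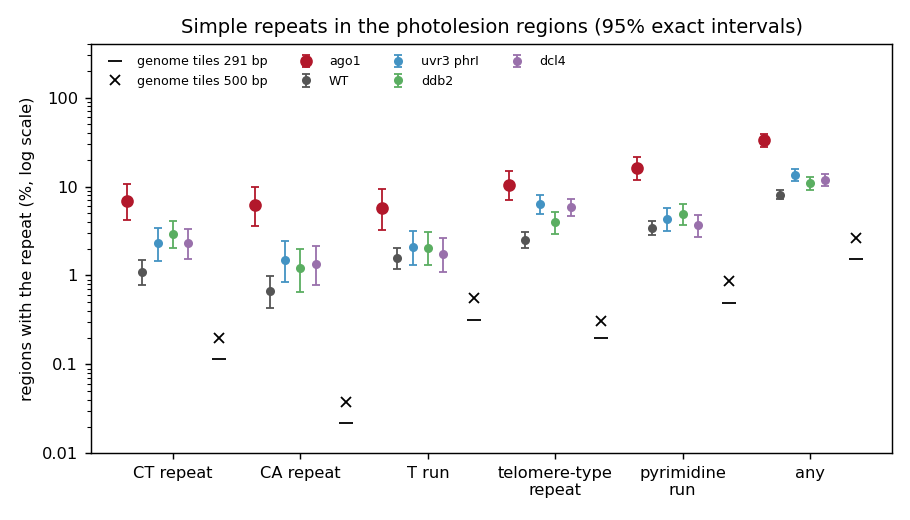
Share of regions with each kind of simple repeat (y axis, %, log scale) for the 5 lists with exact 95% intervals, and for genome tiles of 291 bp (dash) and 500 bp (cross). The *ago1* point, from the list with the fewest regions, is the highest for each kind drawn. Any of the repeats occurred in 33.2% of *ago1* regions and in 1.54% of the shorter tiles.

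The fold enrichment of the *ago1* regions differed by the kind of repeat. The median was 8.53 with a CT repeat (quartiles 7.07 and 11.4), 8.48 with a CA repeat (quartiles 6.61 and 10.6), 6.28 with a telomere-type repeat, 6.30 with a T run, and 5.32 in the 173 regions with none (quartiles 4.70 and 6.15). A repeat was in 22 of the 26 highest regions (84.6%, 95% CI 65.1 to 95.6%, or 16 of their 20 loci), in 41 of the next 104 (39.4%, 95% CI 29.98 to 49.5%) and in 23 of the 129 lowest (17.8%, 95% CI 11.7 to 25.5%). The exceptions among the 26 were the rDNA region after AT3G41979, PRORP2, AT1G21610 and the region beside NAC097 (AT5G50820). Region length moves with these values, since the median was 507 bp in the highest group and 293 and 289 bp in the others. Its part in the shares was not tested. The repeats were defined after the highest regions had been read, so a high share among them was partly set by that choice. These shares and medians are therefore no test of a link between repeats and fold enrichment.

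**Figure D3:**
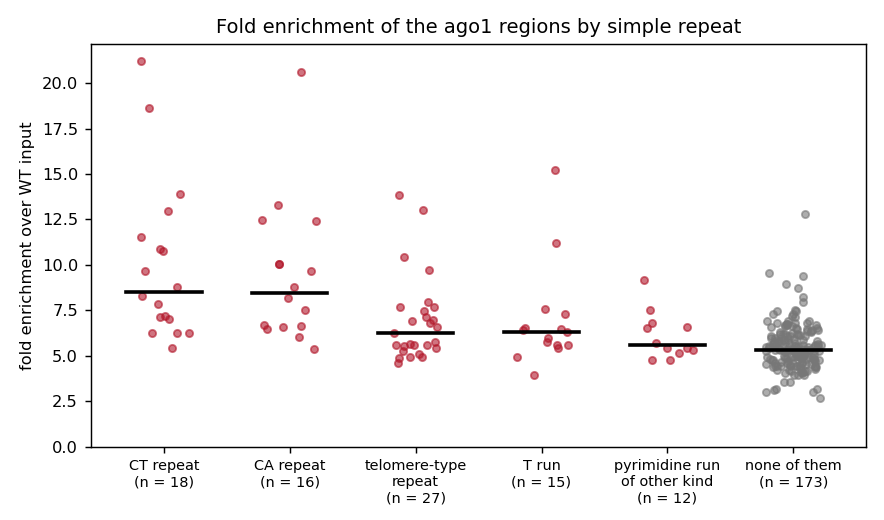
Fold enrichment over WT input (y axis) of the *ago1* regions with each kind of simple repeat, 1 point per region and a bar at the median. Regions with CT or CA repeats have medians of 8.53 and 8.48, those with none of the repeats 5.32, the 12 pyrimidine runs of other kinds hold neither a CT nor a T repeat, and 2 regions with both a CT and a CA repeat appear in both groups.

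Within the *ago1* loci, coverage by these repeats was higher near the middle than beyond 500 bp. The repeats were defined after the highest of these regions had been read, so this difference was partly set by that choice. It is therefore no test of where repeats lie. Over the 232 loci a pyrimidine run of at least 30 bases covered 5.79% of the positions in the more covered of the central bins of 50 bp, and at most 0.259% in any bin more than 500 bp away. Telomere-type repeats covered 3.16% at the centre and up to 1.03% beyond 500 bp. For CA repeats the values were 0.828% and 0%.

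**Figure D4:**
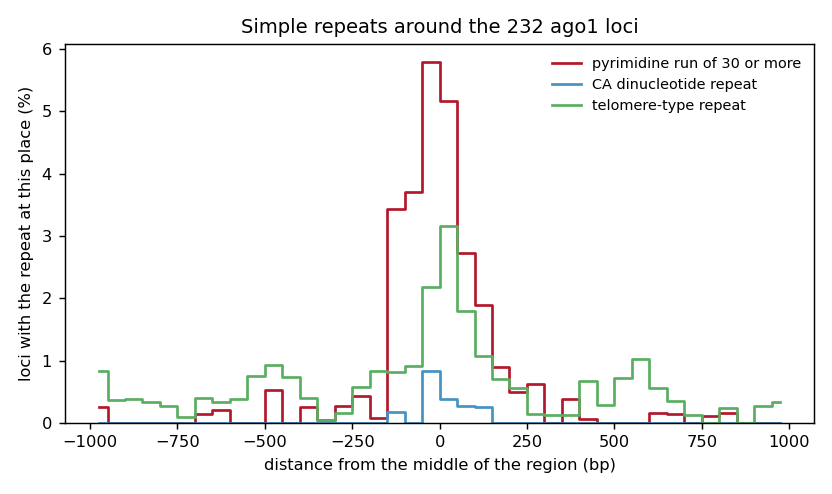
Share of positions covered by a repeat over the 232 *ago1* loci (y axis, %) by distance from the middle of the locus (x axis, bp, bins of 50 bp). This is not the share of loci that hold a repeat, which for pyrimidine runs is 34 of 232. Pyrimidine runs reach 5.79% at the centre and do not exceed 0.259% beyond 500 bp.

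By the annotation at their middle, with TEs first, 92 *ago1* regions lay in TEs (35.5%, 95% CI 29.7 to 41.7%), 92 in protein-coding genes (35.5%, same interval) and 75 in intergenic DNA (29.0%, 95% CI 23.5 to 34.9%). TEs take 20.6% of the genome, genes 49.3% and intergenic DNA 30.1%. The WT list had 17.4% in TEs (95% CI 16.1 to 18.6%) and 57.7% in genes (95% CI 56.0 to 59.3%), and the *uvr3 phrI* list had 33.2% in each. Each genotype is 1 pooled list, so whether these shares differ between genotypes was not tested. The median fold enrichment was 5.58 in TEs, 5.42 in genes and 5.95 in intergenic DNA, with overlapping intervals. No annotated feature at all was touched by 48 regions (18.5%). The matching shares of the genome and of the other lists are not given here, so this share is not read as high or low.

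**Figure D5:**
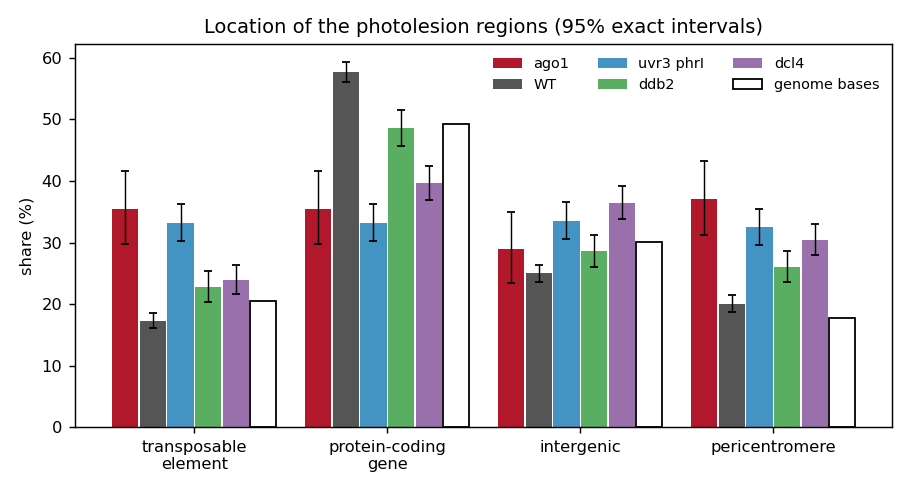
Share of the regions of each list (y axis, %) whose middle lay in a TE, a protein-coding gene or intergenic DNA, and in the pericentromere, with exact 95% intervals, beside the share of genome bases (white). The *ago1* list has 35.5% in TEs and 37.1% in the pericentromere.

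The 92 regions in protein-coding genes fell on 81 genes. Their middle was in the coding sequence in 38 (41.3%, 95% CI 31.1 to 52.1%), in an intron in 33 (35.9%, 95% CI 26.1 to 46.5%), in a 5′ UTR in 10, in a 3′ UTR in 10, and in 1 case in a UTR between coding exons of alternative transcripts. Of the bases of all such genes, 51.7% are coding, 27.9% intronic and 20.4% in UTRs, and the intervals for coding sequence and introns include these shares. Along the gene from its 5′ to its 3′ end, 45 regions lay in the first of 3 equal parts (48.9%, 95% CI 38.3 to 59.6%), 22 in the middle one (23.9%) and 25 in the last (27.2%). The first part also held the most genic regions of the other lists, with 52.6% in WT, 51.2% in *uvr3 phrI*, 45.6% in *ddb2* and 50.3% in *dcl4* regions.

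The 26 highest regions form 20 loci, 5 of them genic, and 3 of these held a CA repeat (AT3G23460, CRN and the place where AT5G47530 and AT5G47540 meet, each listed as a pair of entries). Of the 10 CA-repeat loci 7 were genic. CRN (AT5G13290), which encodes the CORYNE kinase of CLAVATA signalling, had overlapping entries of 12.4 and 10.05 in its 5′ UTR. SECA2, a preprotein translocase gene, had 8.19 in an intron, AGL14, a MADS-box gene, 7.51 and FTSH11, a protease gene, 6.46. The longest region, Chr2:7217328-7218099, lay in the coding sequence of PRORP2 (AT2G16650), a protein-only RNase P gene, with a fold enrichment of 9.55 and without a repeat of the kinds searched. The other lists had 8.59 in WT, 15.98 in *uvr3 phrI*, 10.002 in *ddb2* and 6.22 in *dcl4* plants there.

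Of the 75 intergenic regions, 48 were upstream of the nearest protein-coding gene (64.0%, 95% CI 52.1 to 74.8%) and 27 downstream. A gene of unknown strand was counted as lying on the minus strand, for example AT5G25422 beside Chr5:8845610-8845917. Within 1 kb of a gene were 40 of the 75 (53.3%), and 20 were more than 5 kb away. The matching shares of intergenic bases are not given here, so no preference for a side or distance is read from these counts.

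Of the 92 TE regions, 90 had a named TE at their middle, from 40 of the 320 annotated families. Grouped by family name, Helitron elements, which transpose by rolling-circle replication, held 33 (36.7%, 95% CI 26.8 to 47.5%) with 32.0% of annotated TE bases. Of these 33, 24 were in the single family ATREP18, which has 1.28% of TE bases, so the Helitron share does not describe the other Helitron families. Mutator-like elements held 20 (22.2%, 95% CI 14.1 to 32.2%) with 13.4% of TE bases, and Gypsy retrotransposons 11 (12.2%, 95% CI 6.26 to 20.8%) with 28.0%. CACTA elements held 9 and Copia retrotransposons 3. Families with 3 or more regions were ATREP18 (24), ATDNAI27T9C, ATENSPM9, ATREP10D and VANDAL17 (4 each), and ATGP1, ATHILA2, ATIS112A, LIMPET1 and VANDAL3 (3 each), and 25 families had 1.

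ATREP18 alone accounted for 24 of the 90 (26.7%, 95% CI 17.9 to 37.0%), although its 391 copies make up 1.28% of annotated TE bases. In the other lists its share of TE regions was 13.0% in WT, 19.5% in *uvr3 phrI*, 17.8% in *ddb2* and 25.3% in *dcl4*. All 24 *ago1* regions held the telomere-type repeat, which is present in 248 of the 391 copies (63.4%), and 23 were pericentromeric, as are 96.9% of the copies. Their fold enrichment ranged from 4.62 to 13.8 with a median of 6.03. An *ago1* region touched 31 copies, 29 of which were also touched by a WT region. The other 3 *ago1* regions with this repeat lay in other TEs, 2 of them in ATHILA2.

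Of smaller families, the 3 LIMPET1 regions ranged from 5.42 to 10.8 and the 4 ATDNAI27T9C regions from 5.43 to 10.9, with a repeat in 3 regions of each. The 4 VANDAL17 regions ranged from 3.55 to 5.48, and all 4 also lay in the annotated coding sequence of a gene (AT5G22310, AT3G25840, AT1G76780 and AT1G80810). VANDAL17 held 4.44% of the *ago1* and 7.86% of the WT TE regions, within the *ago1* interval (95% CI 1.22 to 11.0%).

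Chromosomes 1 to 5 held 74, 41, 59, 33 and 52 regions, or 2.43, 2.08, 2.51, 1.78 and 1.93 per Mb. The share of each chromosome had an interval that includes its share of the genome. The pericentromere, the longest run of 100-kb bins with gene coverage under 50% of the chromosome median, makes up 17.8% of the genome and held 96 regions (37.1%, 95% CI 31.2 to 43.3%). The density was 4.53 regions per Mb there and 1.66 per Mb in the arms, a ratio of 2.72. In the other lists this ratio was 1.16 in WT, 2.23 in *uvr3 phrI*, 1.63 in *ddb2* and 2.03 in *dcl4*. Of the 96 pericentromeric *ago1* regions 62 were in TEs, 26 intergenic and 8 in genes. The pericentromere of chromosome 1 had the highest density, 6.50 per Mb, and that of chromosome 5 the lowest, 3.33 per Mb. The median fold enrichment was 5.54 in the pericentromere (95% CI 5.31 to 6.07) and 5.71 in the arms (95% CI 5.48 to 5.96), and these intervals overlap.

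With gaps of up to 10 kb, 89 entries (34.4%, 95% CI 28.6 to 40.5%) had a neighbour, but most of these are overlapping pairs. Counted as loci, 38 of 232 did (16.4%, 95% CI 11.9 to 21.8%), in 15 runs, 9 of them pericentromeric. The median gap between neighbouring loci was 305672 bp. The other lists have more regions and therefore smaller gaps, so their clustering was not compared. Runs of 3 or more loci were 3 on chromosome 1 and 1 on chromosome 2. Chr1:15198250-15207293 held 5 loci, all in ATREP18 copies, with fold enrichments from 5.12 to 7.67. Chr1:15420942-15435586 held 5, of which 4 were in ATREP18 and 1 in ATHILA2, from 4.88 to 6.28. Chr1:15137818-15149559 held 3, up to 9.73. Chr2:3619583-3624841 held 3 loci with 4 entries, all in AT2G08986, an uncharacterized protein gene, with values from 3.02 to 4.29. In 2 more runs of 2 loci an overlapping pair made 3 entries, at Chr3:13590356-13592102, where nothing is annotated, and at Chr5:14739335-14743409, where the pair has CT and CA repeats and values of 9.64 and 8.77.

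The reads were mapped allowing 1 place in the genome, so near-identical copies limit what could be seen. Another copy of at least 95% identity over 80% of the length was found for 21 regions (8.11%, 95% CI 5.09 to 12.1%), 18 of them pericentromeric. They include the 4 entries in AT2G08986 and both entries after AT3G41979. Their median fold enrichment was 5.26, against 5.68 for the other 238, and 7 of the 10 lowest regions of the list, all at 3.95 or below, were among them. These values are uncertain, since reads that could align to more than 1 place were left out. None of the 259 regions matched the mitochondrial or chloroplast genome.

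An *ago1* region was counted as found in another list when at least 50% of it was covered. This held for 158 in the WT list (61%, 95% CI 54.8 to 67.0%), 116 in *dcl4* (44.8%, 95% CI 38.6 to 51.1%), 84 in *ddb2* (32.4%, 95% CI 26.8 to 38.5%) and 79 in *uvr3 phrI* (30.5%, 95% CI 25 to 36.5%). The WT list covers 0.794% of the genome and the others between 0.128% and 0.209%. Conversely, *ago1* regions covered 4.99% of the WT, 13.5% of the *dcl4*, 13.0% of the *ddb2* and 15.7% of the *uvr3 phrI* regions. The *ago1* regions are longer than those of the mutant lists, and with an overlap of 1 bp the shares came close to each other, at 68.0% in WT, 59.1% in *dcl4*, 56.0% in *ddb2* and 58.3% in *uvr3 phrI*. The order of the mutant lists at 50% was thus not kept at 1 bp.

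In all 4 other lists 41 regions were found (15.8%, 95% CI 11.6 to 20.9%), 20 in TEs, 14 intergenic and 7 in genes, with a median fold enrichment of 6.42 (quartiles 4.98 and 7.98). In none were 77 (29.7%, 95% CI 24.2 to 35.7%), of which 40 were in genes, with a median of 5.29 (quartiles 4.65 and 6.18) and a maximum of 7.98. A repeat was in 18 of the 41 (43.9%) and in 16 of the 77 (20.8%). Of the 41, 24 were pericentromeric, and of the 77, 18. The TE regions found in all lists comprised 9 in ATREP18, 2 each in LIMPET1 and ATENSPM9, and 1 each in ATDNA2T9C, ATHILA2, ATREP10D, ATIS112A, ATENSPM6 and ARNOLDY2, beside 1 in the TE gene AT3G33072. The genic ones were in AT3G23460, at AT5G47530 and AT5G47540, in PRORP2, AT1G21610, RGD3 (AT3G54280, a SNF2-type ATPase gene) and AT2G08986 (2 entries). RGD3 had 6.10 in *ago1*, 5.67 in WT, 6.33 in *uvr3 phrI*, 6.72 in *ddb2* and 6.67 in *dcl4* plants, without any repeat searched.

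Of the 77 regions found in no other list, 27 still touched a region of one, so 50 (19.3%) touched none. The 5 highest of the 77 began with an intron of PDF2 (AT4G04890, a homeodomain gene of the shoot epidermis) at 7.98, Chr4:2481693-2482008. AT5TE68140 (ATCOPIA58) followed with 7.58, in a pyrimidine run of 39 bases and with another copy in the genome, and regions of the WT, *uvr3 phrI* and *ddb2* lists touched it. Chr1:4522857-4523106, 437 bp from AT1G13230, had 7.44. The coding sequence of TERT (AT5G16850), the telomerase reverse transcriptase gene, had 7.31 at Chr5:5540403-5540877, and Chr1:4081438-4081937, upstream of AT1G12070, also 7.31. The regions in PDF2 and TERT touched none of the other lists, and a *uvr3 phrI* region touched both regions of chromosome 1.

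Di-pyrimidines (TT, TC, CT and CC) made up 28.5 of 100 dinucleotides of both strands in the median *ago1* region (95% CI 28.0 to 28.9, quartiles 26.5 and 31.0), against 27.2 in the genome tiles (quartiles 25.9 and 28.6). Expressed per class, the medians were 28.9 in TE regions and 27.1 in TE tiles, 28.3 and 27.6 in genes, and 28.2 and 26.9 in intergenic DNA. TT had 12.4 in *ago1* regions and 11.4 in tiles, TC 5.93 and 6.38, CT 6.15 and 6.03, and CC 3.20 and 3.28. The interval of TC lay below the tile median and that of TT above it (95% CI 5.71 to 6.20 and 11.5 to 13.0). In TEs, TC was 4.85 and 6.03 and CT 6.23 and 5.52. The highest value, 44.1, belonged to the LIMPET1 region Chr3:12670315-12670569 with its CT repeat. The CA-repeat entry of AT3G23460 had 23.1, below the lower quartile of the tiles. GC content was 35.6% in the median *ago1* region and 36% in the genome.

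The *ago1* lists of regions with changed DNA methylation between time point 0 and 24h (DMRs), from 1 bisulfite library per time point, cover 0.331% (gain) and 0.299% (loss) of the genome. At least 50% of 12 *ago1* photolesion regions lay in such a DMR (4.63%, 95% CI 2.42 to 7.95%), 6 with a gain (6 DMRs) and 6 with a loss (4 DMRs, as overlapping entries share them). All were in the CHH context, to which 99.7% of the gains and 99.9% of the losses in the whole lists belong. In the ATREP18 copy AT2TE15385 (fold enrichment 4.91), the CHH level was 7% at time point 0 and 45.5% at 24h, the highest gain of the 6. ATREP18 regions with a gain were also AT1TE50890 (15.8% to 33.7%) and AT1TE50885 (2.84% to 26.6%). Gains were listed too in LIMPET1 (AT1TE42080, 34.6% to 46.6%), ATHILA6A (AT3TE60460, 14.5% to 26.4%) and ATHILA2 (AT2TE16575, 9.37% to 19.7%). Among regions covered by at least 50%, the loss of most points was at the LIMPET1 pair on chromosome 3 (AT3TE52120), from 40.5% to 10.9%. The other losses were at the intergenic CT repeat Chr3:11895155-11895676 and its nested entry (21.4% to 7.88%) and in the ATREP18 copies AT1TE50935 (29.96% to 7.96%) and AT1TE49665 (27.6% to 17.3%). ATREP18 thus stood on both sides, with 3 of the 6 gained and 2 of the 4 lost DMRs. With less than 50% of the region covered, a loss of more points was listed at the ATREP18 copy AT3TE50860, from 51.4% to 12.4%, in a DMR that covers 43.9% of its region.

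Among 29 genes of UV damage repair, small RNA and DNA methylation pathways, 1 carried an *ago1* region, AGO1 (AT1G48410) itself. Of all 27206 annotated protein-coding genes 107 were touched by one (0.393%). Chr1:17891963-17892215, in an intron near its 5′ end, had a fold enrichment of 5.67, and regions of the WT (4.95) and *uvr3 phrI* (5.44) lists touched it. The WT list, which has the most regions, touched 4 of the 29 genes, *uvr3 phrI* 2, *dcl4* 1 and *ddb2* none. For these lists the share of all genes touched is not given here, so the counts are not compared. PHR1, UVR3, DDB2 and DCL4, the genes mutated in the other genotypes, had no *ago1* region, like most of the 27206 genes.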

How the data were processed

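IP and input reads were mapped by the authors to the TAIR10 genome with Bowtie 1.1.2, with up to 2 mismatches, leaving out reads with more than 1 place (methods and submitters' processing notes). The deposited fold enrichment is the ratio of IP over WT input given by MACS2 2.1. Deposited methylation levels of DMRs are scores between 0 and 1, shown here as percentages. Genes and TEs came from the annotation columns of a deposited small RNA table. Of the 27206 protein-coding genes annotated there, 26719 were found by name in the TAIR10.1 annotation, all overlapping but only 5083 with the same start and end, so positions within genes depend on the TAIR10.1 models, which gave strand, exons and UTRs. The 60 value columns of the 6 small RNA tables match no sample and were not used. The depth per region is unknown.

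Classes used the middle of a region. Shares have Clopper-Pearson intervals. Copies were sought with BLAST 2.17.0 and the rest was computed with Python 3.11.15 (pandas 2.3.3, scipy 1.17.1, matplotlib 3.10.9). The functions were tested on simulated data. Named loci were the 10 highest regions, the highest of each class and chromosome, the longest, those in all or no other lists, those with DMRs, families and runs of 3 or more, and 29 listed genes. Examples among CA-repeat genes, and the repeat definitions, were chosen after their values were seen. The regions, lists and rules were chosen with earlier results of these data known.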

Additional observations from a re-analysis of the deposited data

How the results depend on the processing

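No paired analysis was possible because the list pools its libraries and the labels carry no replicate numbers. The definition of overlap moved the shares most. With 1 bp in place of 50% of the *ago1* region, the share found was 68.0% for WT, 58.3% for *uvr3 phrI*, 56.0% for *ddb2*, 59.1% for *dcl4* and 80.7% for any list, and with 50% of either region 56.0% for *uvr3 phrI*, 53.7% for *ddb2*, 57.9% for *dcl4* and 79.9% for any list. With fold enrichments of 5 or more only, 77.4% were found in any list. The pericentromeric share was 46.3% when the zone was drawn as 3 Mb to either side of the gene-poorest place, 25.2% of the genome. Entries with a neighbour were 25.9% at 1 kb, 55.2% at 100 kb and, after merging overlapping entries, 16.4% at 10 kb. The mean fold enrichment was 6.29, and the median of regions of at least 300 bp was 6.46. Di-pyrimidines were 27.3 per 100 on the plus and 26.5 on the minus strand. The other alternatives stayed within the interval of the value given, or within 1.5 times a count. Merging overlapping entries was chosen after seeing the data. At this number of regions, shares have intervals several points wide, and reads per region are unknown, so the precision of a single region's rank is unknown.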
